A study of Danio rerio with 3 samples.

Results

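The lysosomal protease and hydrolase genes are a list of 44 zebrafish genes that encode the digestive enzymes of the lysosome, their activator proteins, the main proteins of the lysosomal membrane, a calcium channel of that membrane and a family of transcription factors. Members were matched by name to the array's probe sets, either by the platform's symbol or by the current one, and the probe sets of a gene were averaged. This gave 34 measured members out of 19260 named genes. Of the other 10, ctss2.2 was named only on a probe set that also carries another gene, and hexa, hexb, gba, naga, gns, arsb, lipa, lamp1a and tfec were unnamed in the annotation used here. Each of the 34 was above the limit of 3.45 used to leave out dim genes, a limit that 17958 named genes passed.

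Brain RNA of adult zebrafish aged 6 months and held at 28 °C was hybridised to 3 arrays. The sleep-deprived fish had been kept in light for 24 h a day, with 0 h of dark, over 3 days. The fear-conditioned fish had been trained by inhibitory avoidance learning, in which an animal learns to hold back a response that brings an aversive stimulus, and the naive fish, labelled as the control, had a daily cycle with light for 14 h and dark for 10 h. With 1 array per condition no difference has a replicate check, a test or an error, and all values describe these 3 arrays. Sleep loss, longer light and the missing dark phase all fall on the sleep-deprived array, so they cannot be told apart. No strain, genotype or sex is given in the sources used here, nor the number of fish behind each array, the hour at which brains were taken or the light schedule of the fear-conditioned fish. Signals are the deposited normalized values, read as log2, so that a difference of 1 is a 2-fold change.

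Lysosomes are the acidic compartments in which cells break down proteins, lipids and sugar chains delivered by endocytosis, phagocytosis and autophagy. Proton pumps acidify the lumen, cathepsins and legumain cut proteins, glycosidases, sulfatases and lipid hydrolases take apart glycoconjugates and membranes, and in mammals the transcription factor TFEB switches on many of these genes together. Nearly all cells have lysosomes, but microglia, the resident macrophages of the brain, clear debris and are known for high levels of cathepsins and legumain. In RNA from whole brain, fewer cells of a type and less RNA per cell cannot be told apart.

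The plot of signals by gene shows each member on each array. The median member had a signal of 7.12 on the sleep-deprived, 7.51 on the fear-conditioned and 7.74 on the naive array, where the median named gene had 6.59, 6.64 and 6.64. The sleep-deprived array thus had the lowest median over the members. A probe set's signal also depends on its sequence, so signals of different genes do not measure their relative abundance.

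**Figure D1:**
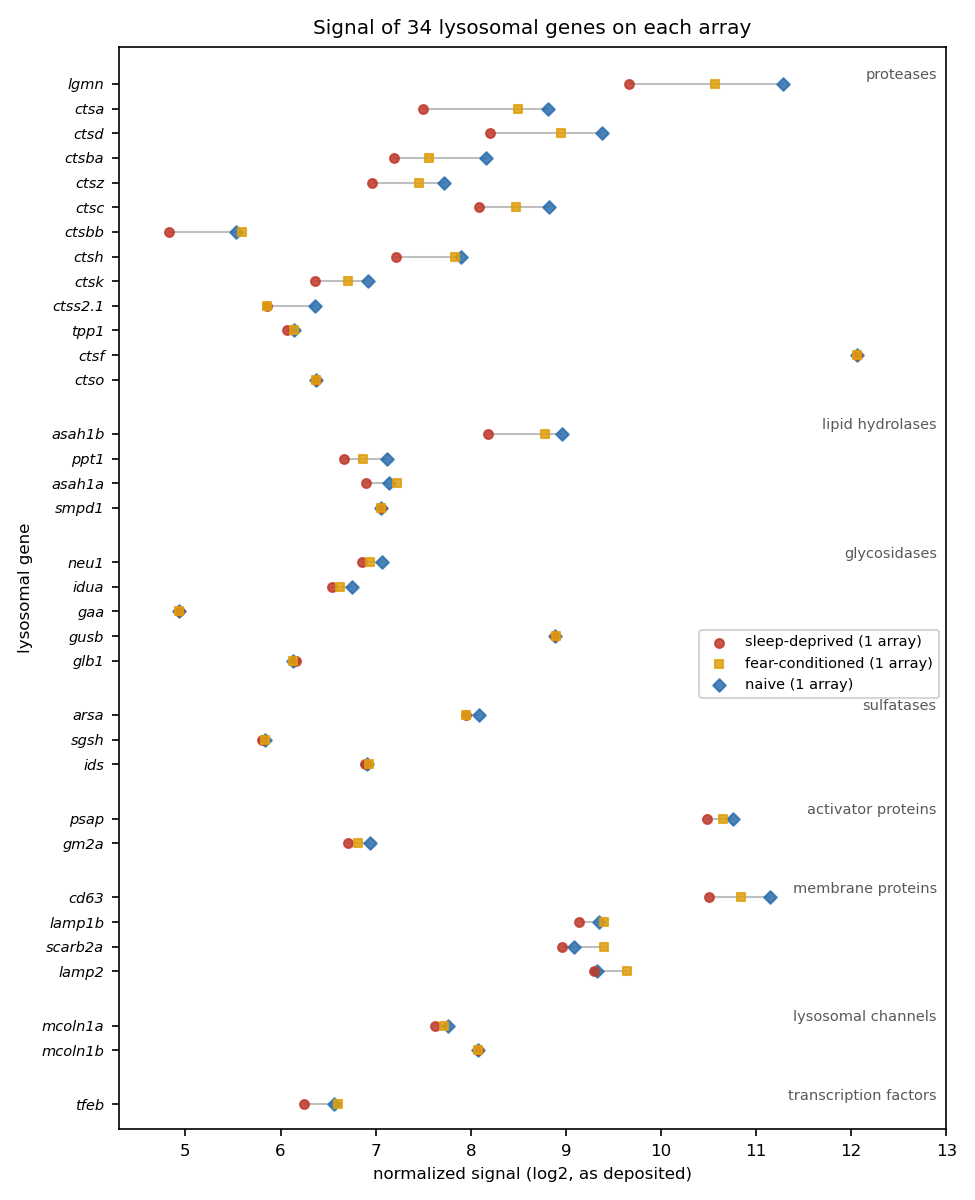
Normalized signal (log2, as deposited) of the 34 measured lysosomal genes, by role, on the sleep-deprived (circles), fear-conditioned (squares) and naive (diamonds) array, with a grey line from the lowest to the highest. The widest spread is that of lgmn, at 9.66, 10.56 and 11.29, while ctsf, ctso, gaa and mcoln1b have the same value on all 3 arrays.

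The first comparison asked how lysosomal gene expression in fish deprived of sleep compared with that of naive fish. Of the 13 measured proteases 11 were lower on the sleep-deprived array and 2 exactly equal, with a median log2 difference of -0.71, led by legumain and cathepsins A, D and B. Of the 34 members 10 were at least 1.5-fold lower, against 2.43% of all genes, and 0 were at least 1.5-fold higher, against 0.484% of all genes. A 2-fold lower signal was found for 3 members, lgmn, ctsa and ctsd, and for 0.668% of all genes. Counting any difference, 28 members were lower, 5 exactly equal and 1 higher, whereas of all genes 30.9% were lower, 44.3% equal and 24.8% higher. The median log2 difference was -0.22 over the members and 0.00 over all genes.

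**Figure D2:**
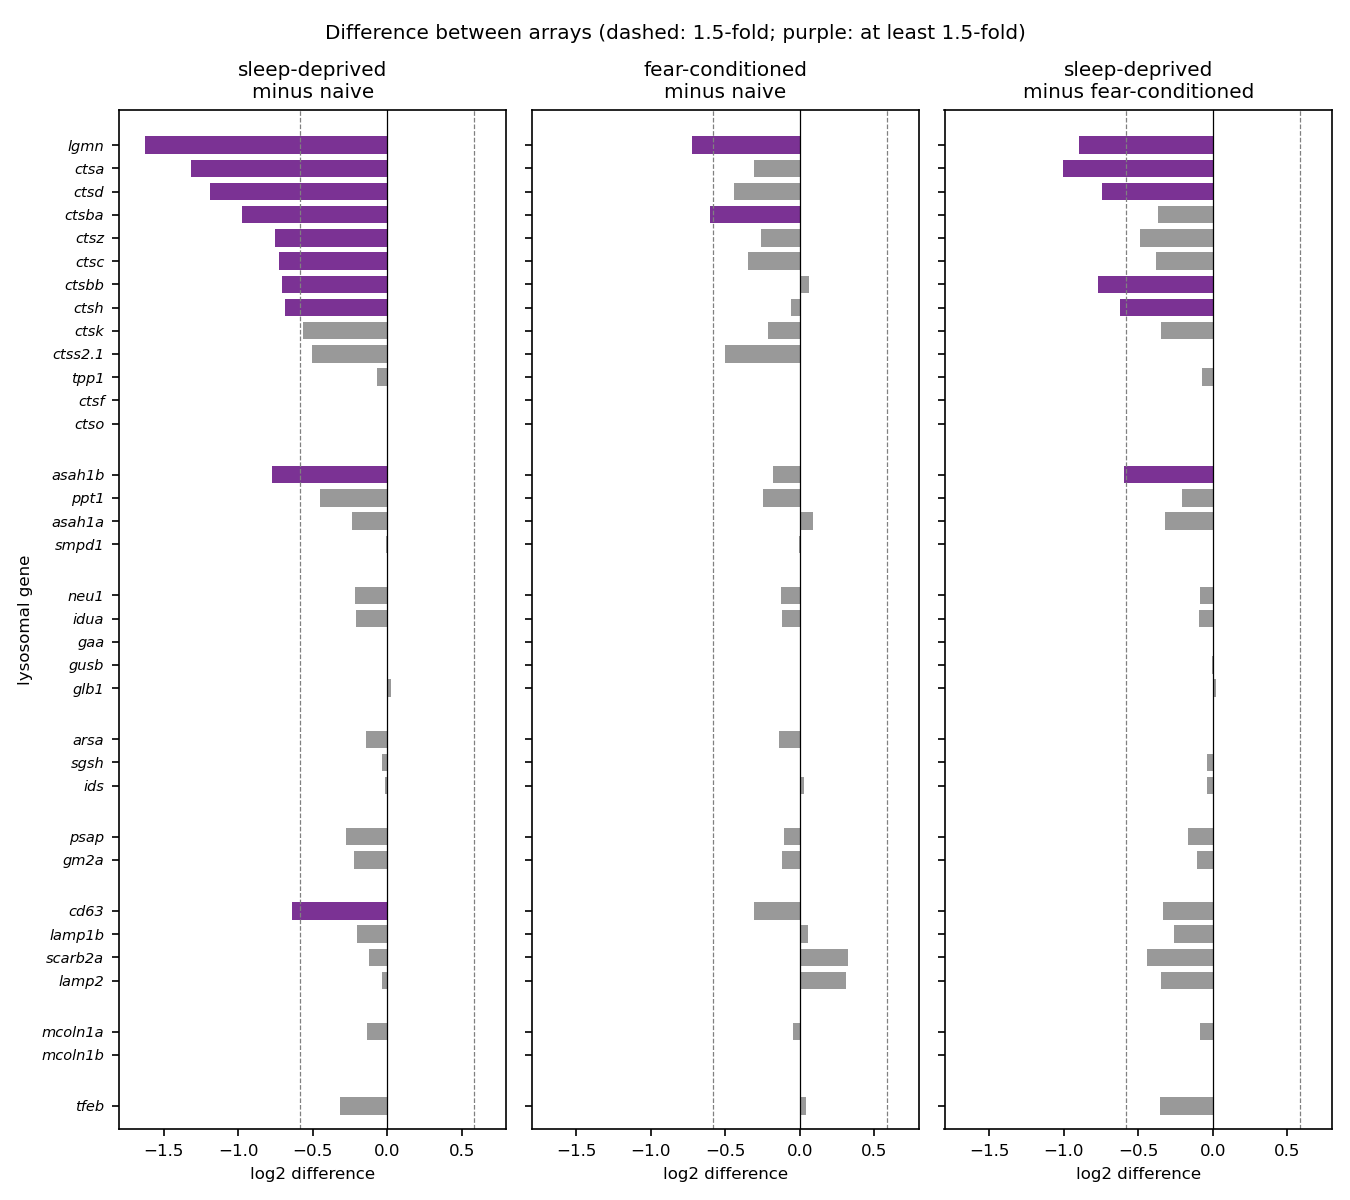
Log2 difference of each of the 34 lysosomal genes in the 3 comparisons, by role, with dashed lines at 1.5-fold and purple bars for genes at least that far apart. Of the 10 purple bars for sleep-deprived minus naive 8 are proteases. There are 2 purple bars for fear-conditioned minus naive, lgmn and ctsba, and 6 for sleep-deprived minus fear-conditioned, all negative.

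Legumain, the product of lgmn, cuts proteins after asparagine and helps to mature other lysosomal proteases. Its signal was 9.66 on the sleep-deprived, 10.56 on the fear-conditioned and 11.29 on the naive array. The sleep-deprived value was therefore 3.08-fold lower than the naive one (log2 difference -1.62), and only 0.123% of genes had a more negative difference. Cathepsin A, encoded by ctsa, is a serine carboxypeptidase that also protects a sialidase and a beta-galactosidase from degradation. Its signals were 7.50, 8.50 and 8.81 in the same order of sleep-deprived, fear-conditioned and naive, and the sleep-deprived signal was 2.49-fold lower than the naive one (-1.31). The aspartic protease gene ctsd had 8.20 on the sleep-deprived, 8.94 on the fear-conditioned and 9.38 on the naive array. Its sleep-deprived signal was 2.28-fold lower than the naive one (-1.19). These 3 genes were singled out by their sleep-deprived minus naive difference, and in each the fear-conditioned signal lay between the sleep-deprived and naive ones.

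Zebrafish have 2 genes of the cysteine protease cathepsin B, ctsba and ctsbb. The ctsba signal was 7.19 on the sleep-deprived, 7.56 on the fear-conditioned and 8.16 on the naive array. For ctsbb it was 4.82, 5.59 and 5.53 on the same arrays. The sleep-deprived array was the lowest for both copies, with log2 differences from naive of -0.97 for ctsba and -0.71 for ctsbb, but the fear-conditioned signal of ctsba lay below the naive one by 0.61 on the log2 scale and that of ctsbb above it by 0.06.

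Among the other exopeptidases, cathepsin Z (ctsz), a carboxypeptidase, had signals of 6.96 on the sleep-deprived, 7.46 on the fear-conditioned and 7.71 on the naive array. Cathepsin C (ctsc), which removes dipeptides and activates granule proteases of leukocytes, had 8.09 on the sleep-deprived, 8.47 on the fear-conditioned and 8.82 on the naive array. The aminopeptidase gene ctsh had 7.21, 7.84 and 7.90 on those arrays. The sleep-deprived signal was lower than the naive one by a similar amount in the 3 genes, with log2 differences of -0.75, -0.73 and -0.68, while the fear-conditioned signal of ctsh lay close to its naive signal.

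A smaller difference was seen for ctsk, which encodes the collagen-degrading cathepsin K and had 6.36 on the sleep-deprived, 6.71 on the fear-conditioned and 6.92 on the naive array. At -0.56 it was the member just short of 1.5-fold, and the tetraspanin gene cd63, at -0.64, the one just past it. The cathepsin S gene ctss2.1 had exactly the same signal, 5.86, on the sleep-deprived and fear-conditioned arrays, against 6.36 on the naive array. Not all proteases differed by this much. Tripeptidyl peptidase, the product of tpp1, differed by -0.07, and the cathepsin F and O genes ctsf and ctso had the same value on the 3 arrays, 12.06 and 6.37.

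All 4 measured genes of lipid hydrolases were lower on the sleep-deprived than on the naive array, as were 30.9% of all genes. They had a median log2 difference of -0.35, and 1 of them, asah1b, was at least 1.5-fold lower, against 2.43% of all genes. Acid ceramidase, which splits ceramide into sphingosine and a fatty acid, is encoded by asah1a and asah1b. The signal of asah1b was 8.18 on the sleep-deprived, 8.78 on the fear-conditioned and 8.96 on the naive array, a log2 difference between the first and the last of -0.78. For asah1a it was 6.90 on the sleep-deprived, 7.22 on the fear-conditioned and 7.14 on the naive array (sleep-deprived minus naive -0.24), so that again the copies shared the lowest array but not the highest. The palmitoyl-protein thioesterase gene ppt1 had 6.66 on the sleep-deprived, 6.87 on the fear-conditioned and 7.11 on the naive array, and its 2 probe sets gave -0.40 and -0.50 for sleep-deprived minus naive. Acid sphingomyelinase (smpd1) had 7.05 on the sleep-deprived and fear-conditioned arrays and 7.06 on the naive array, a sleep-deprived minus naive difference of -0.0064.

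The measured glycosidases, which trim sugar chains, and sulfatases, which remove sulfate groups from them, had smaller median differences than the proteases. They were 5 of the 9 listed glycosidases and 3 of the 5 listed sulfatases. Further genes of these kinds outside the list, some with larger differences, are given below. Over 5 glycosidase genes the sleep-deprived minus naive difference had a median of 0.00 and ran from -0.22 for the sialidase gene neu1, through -0.21 for idua, to 0.02 for the beta-galactosidase gene glb1. The acid alpha-glucosidase gene gaa and the beta-glucuronidase gene gusb were exactly equal on these arrays. Over 3 sulfatase genes the median was -0.04, with arsa, which acts on the myelin lipid sulfatide, at -0.14, the heparan sulfate enzyme sgsh at -0.04, and ids, an iduronate sulfatase, at -0.01. In sleep-deprived minus naive 0 of these 8 genes were 1.5-fold apart, which is near the shares of 2.43% lower and 0.484% higher over all genes. The enzyme encoded by gns, which was not measured, has a second gene outside the list, gnsa, at 9.05 on the sleep-deprived, 9.34 on the fear-conditioned and 9.58 on the naive array (sleep-deprived minus naive -0.53).

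The precursor of the saposins, psap, whose products present sphingolipids to the hydrolases, had 10.48 on the sleep-deprived, 10.65 on the fear-conditioned and 10.76 on the naive array (sleep-deprived minus naive -0.28). The ganglioside activator gene gm2a had 6.71, 6.81 and 6.94, a difference between the first and last of -0.22. Both were thus lowest on the sleep-deprived and highest on the naive array.

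Membrane proteins did not behave alike. Signals of cd63 were 10.51 on the sleep-deprived, 10.84 on the fear-conditioned and 11.15 on the naive array. A further probe set, shared by cd63 and letmd1, did not repeat these differences. It was at -0.04 for sleep-deprived minus naive and 0.09 for fear-conditioned minus naive, and which gene it measures cannot be said. The glycoproteins lamp1b and lamp2, which line the inner face of the lysosomal membrane, had 9.14 and 9.30 on the sleep-deprived, 9.40 and 9.64 on the fear-conditioned and 9.35 and 9.33 on the naive array. The receptor gene scarb2a, whose product carries glucocerebrosidase to the lysosome in mammals, had 8.96, 9.41 and 9.08 on those 3 arrays, with its 2 probe sets at -0.18 and -0.06 for sleep-deprived minus naive. In contrast to cd63, the last 3 genes were highest on the fear-conditioned array, and their sleep-deprived minus naive differences were -0.20 for lamp1b, -0.04 for lamp2 and -0.12 for scarb2a.

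The calcium channel of the lysosomal membrane, mucolipin, is encoded by mcoln1a and mcoln1b. The signal of mcoln1a was 7.63 on the sleep-deprived, 7.71 on the fear-conditioned and 7.76 on the naive array, and that of mcoln1b was 8.07 on all 3. The transcription factor gene tfeb had 6.25 on the sleep-deprived, 6.60 on the fear-conditioned and 6.56 on the naive array, a sleep-deprived minus naive difference of -0.31. The mcoln1a and tfeb signals were thus lowest on the sleep-deprived array.

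The plot of differences against naive signal shows where on the signal scale the lower members lay. Of the 16 members among the brightest 25% of genes, those with a naive signal from 7.78 upward, 8 had a sleep-deprived signal at least 1.5-fold below the naive one, as did 3.56% of all 4490 genes in that class. Genes were ranked by naive signal in equal classes of 25%, and 1 of 10 members in the next class down, against 3.08% of all its genes, and 1 of 7 in the class below that, against 2.40%, were as low. The naive signal enters both the classes and the differences, so they are not independent. Exactly equal values are more frequent among dim genes of these arrays, with 64.7% in the dimmest class and 26.6% in the brightest, and 3 of the 16 bright members were equal.

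**Figure D3:**
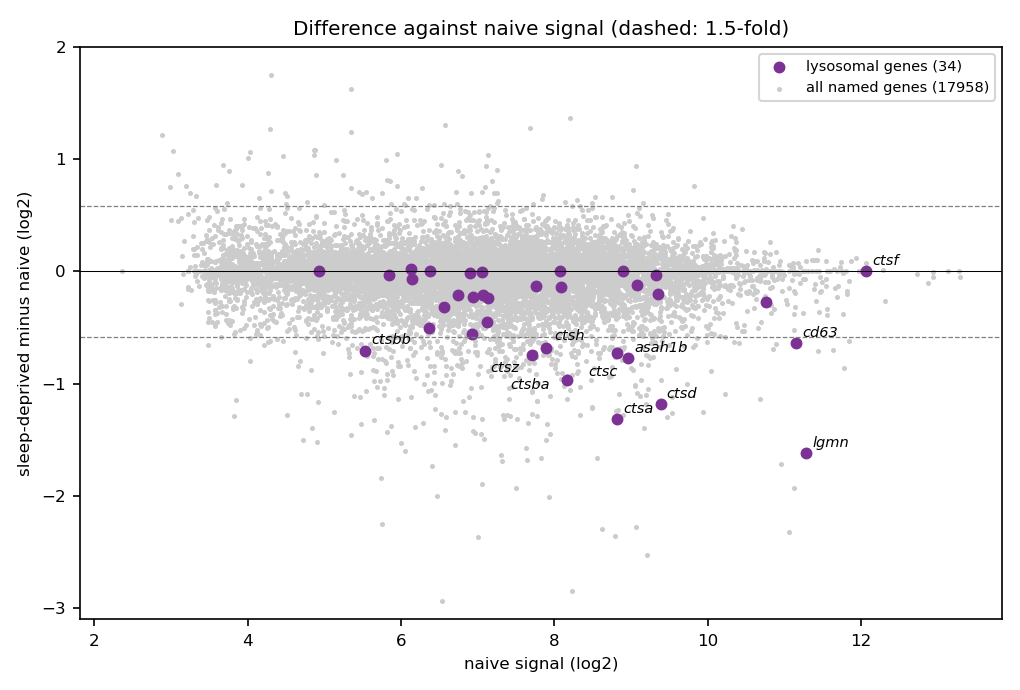
Sleep-deprived minus naive log2 difference against the naive signal (log2) for 17958 named genes (grey) and the 34 lysosomal genes (purple), with dashed lines at 1.5-fold. The members at least 1.5-fold lower are named, as is ctsf, at a signal of 12.06 and a difference of 0.00.

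The second comparison, of fear-conditioned with naive fish, concerned expression that accompanied training by inhibitory avoidance learning. Learning and the aversive stimulus both fall on the fear-conditioned array, so they cannot be told apart. Differences of the lysosomal genes were smaller here. The protease genes lgmn, at -0.72, and ctsba, at -0.61, were the 2 members at least 1.5-fold lower, against 0.763% of all genes, and 0 members were at least 1.5-fold higher, against 0.83% of all genes. At 2-fold, 0 members were lower, against 0.184% of all genes. Of the 34 members 19 were lower, 7 equal and 8 higher, with all genes at 23.2% lower, 46.2% equal and 30.6% higher. The median was -0.05 over the members and 0.00 over all genes, or -0.12 and 0.02 with exactly equal genes left out.

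Within the proteases 9 of 13 were lower, 3 equal and 1 higher, with a median of -0.26. After lgmn and ctsba came ctss2.1 at -0.50, ctsd at -0.44, ctsc at -0.35, ctsa at -0.31, ctsz at -0.26 and ctsk at -0.22, and ctsh was at -0.06. Among the lipid hydrolases ppt1 was at -0.25, asah1b at -0.18 and asah1a at 0.08. In the membrane group cd63 was lower, at -0.31, and 3 genes were higher, scarb2a at 0.32, lamp2 at 0.31 and lamp1b at 0.05. Both scarb2a probe sets were higher on the fear-conditioned array, by 0.35 and 0.30, and 97.0% of all genes had a lower difference than this gene. The glycosidases and sulfatases ran from -0.14 (arsa) to 0.03 (ids), and tfeb was at 0.04. This comparison and the first share the naive array and are not independent. On the fear-conditioned array 9 of 16 markers of skin and epithelium were at least 1.5-fold higher than on the naive array, against 0.83% of all genes, and their part in the higher lamp2 and scarb2a signals was not tested.

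**Figure D4:**
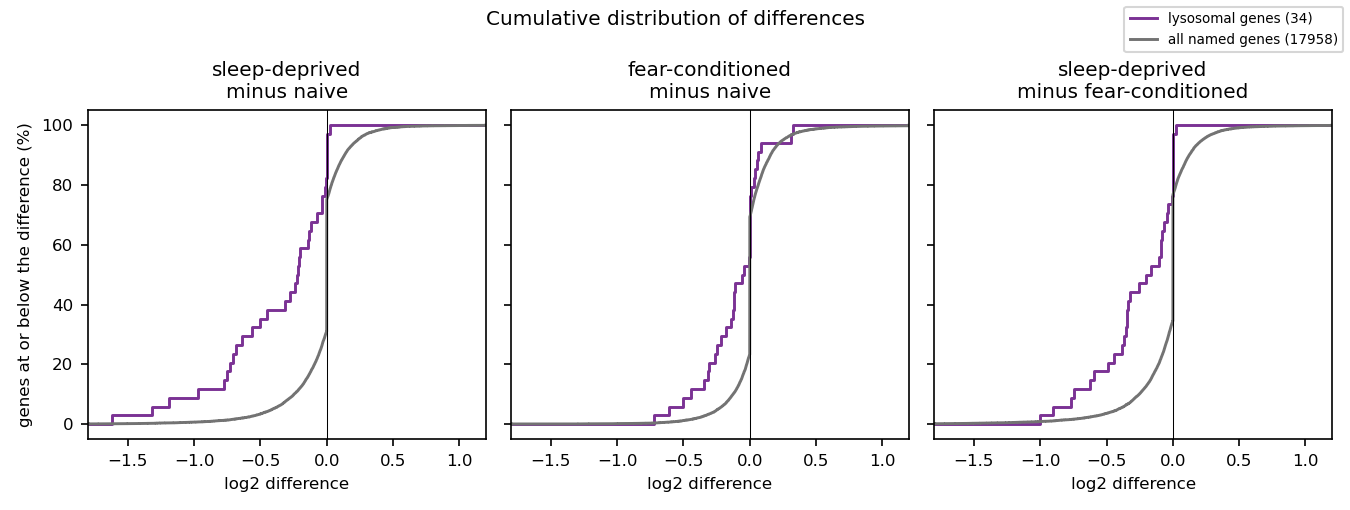
Share of genes (%) at or below each log2 difference, for the 34 lysosomal genes (purple) and all 17958 named genes (grey), in the 3 comparisons. For sleep-deprived minus naive the purple curve lies left of the grey one from lgmn, at -1.62, up to 0, with 10 of 34 members past 1.5-fold against 2.43% of all genes. The vertical step of the curves at 0 is the exactly equal values.

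The third comparison, of sleep-deprived with fear-conditioned fish, uses the same 3 arrays, so each of its differences is that of the first comparison minus that of the second. Here 6 of the 34 members were at least 1.5-fold lower, against 2.71% of all genes, and 0 at least 1.5-fold higher, against 0.562% of all genes. They were ctsa at -1.00, lgmn at -0.90, ctsbb at -0.77, ctsd at -0.75, ctsh at -0.62 and the ceramidase gene asah1b at -0.59. When each array was centred on its median over named genes, ctsh was at -0.58 and asah1b at -0.54, both short of 1.5-fold. At 2-fold or more, 1 member was lower, ctsa, against 0.869% of all genes. Any difference counted, 26 members were lower, 7 equal and 1 higher, with all genes at 34.5% lower, 42.4% equal and 23.1% higher. The median was -0.19 over the members and 0.00 over all genes, or -0.34 and -0.04 with exactly equal genes left out. All 4 membrane protein genes were lower, from -0.44 for scarb2a to -0.26 for lamp1b, and tfeb was at -0.35. In this comparison 9 of 16 markers of skin and epithelium were at least 1.5-fold lower, against 2.71% of all genes. Their part in the differences of the lysosomal genes was not tested. For ctsba, in contrast to ctsbb, the difference was -0.37.

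Other genes of the same pathway were read from further lists, and the plot of lists beside the lysosomal genes shows them. Over all genes, sleep-deprived minus naive was lower for 30.9%, equal for 44.3% and higher for 24.8%. For fear-conditioned minus naive these shares were 23.2%, 46.2% and 30.6%. Subunits of the proton pump that acidifies the lysosome gave no single direction in sleep-deprived minus naive. Of 23 subunit genes 10 were lower, 4 equal and 9 higher, with a median of 0.00 and 1 of them, atp6v0e1 at -0.73, at least 1.5-fold lower, near the 2.43% of all genes. The next in size were atp6v0a1a at -0.58 and atp6ap1b at -0.52, and atp6v1aa was at 0.23. On the fear-conditioned array 15 of the 23 were higher than on the naive array and 3 lower, with a median of 0.03.

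A list of further genes of lysosomal enzymes and membrane proteins, with some related proteins, held 42 genes outside the members. Of these 27 were lower on the sleep-deprived than on the naive array, 12 equal and 3 higher (median -0.10). A signal at least 1.5-fold lower was found for 7 of them, against 2.43% of all genes, and at least 1.5-fold higher for 0, against 0.484%. The fucosidase gene fuca1.1 had 5.52 on the sleep-deprived, 6.46 on the fear-conditioned and 6.94 on the naive array (sleep-deprived minus naive -1.42). The cathepsin L gene ctsla had 7.05, 7.96 and 8.33 on those arrays, a difference of -1.28. Both were lowest on the sleep-deprived array, as was the galactosidase-like gene glb1l (-1.03), and galns, a sulfatase gene, was at -0.85, larger in size than any of the 3 sulfatase genes among the members. On the fear-conditioned array 0 of the 42 were 1.5-fold apart from naive in either direction, near the shares of 0.763% lower and 0.83% higher over all genes.

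Sorting of enzymes to the lysosome was represented by 26 genes, of which 16 were lower on the sleep-deprived array, 8 equal and 2 higher (median -0.04). Of 3 genes of the granulin family, grna.1, listed under its older name grn1, was at -1.67 for sleep-deprived minus naive. It was at -1.02 for fear-conditioned minus naive. The listed gene grna was not measured. The 2 others measured differed less in those comparisons, grna.2 (older name grn2) at -0.21 and 0.09 and grnb at -0.10 and -0.02. Also lower on the sleep-deprived than on the naive array were the late endosome gene rab7b (-0.65) and the mannose 6-phosphate receptor gene m6pr (-0.47). The gene of the sorting receptor sortilin, sort1a, was at -0.36.

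Of the 30 autophagy genes 16 were lower on the sleep-deprived than on the naive array, 12 equal and 2 higher, with a median of -0.01. At 1.5-fold 0 of them were apart, near the shares of 2.43% lower and 0.484% higher over all genes, and the differences were led by the cargo receptor gene sqstm1 (-0.38) and wipi2 (-0.37). Among 14 genes of the TFE family, mTOR signalling and related regulators 8 were lower and 1 higher (median -0.04). The tfeb relative tfe3a had 8.71 on the sleep-deprived, 9.74 on the fear-conditioned and 9.38 on the naive array, lowest in the first and highest in the second. Its sleep-deprived minus naive difference was -0.67, and the next in this list was the mTOR inhibitor gene tsc1b at -0.42. Cystatins, inhibitors of cathepsins, were 3 genes, all lower on the sleep-deprived than on the naive array, cst14b.1 at -1.66, cst14a.2 at -0.47 and cst3 at -0.19.

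**Figure D5:**
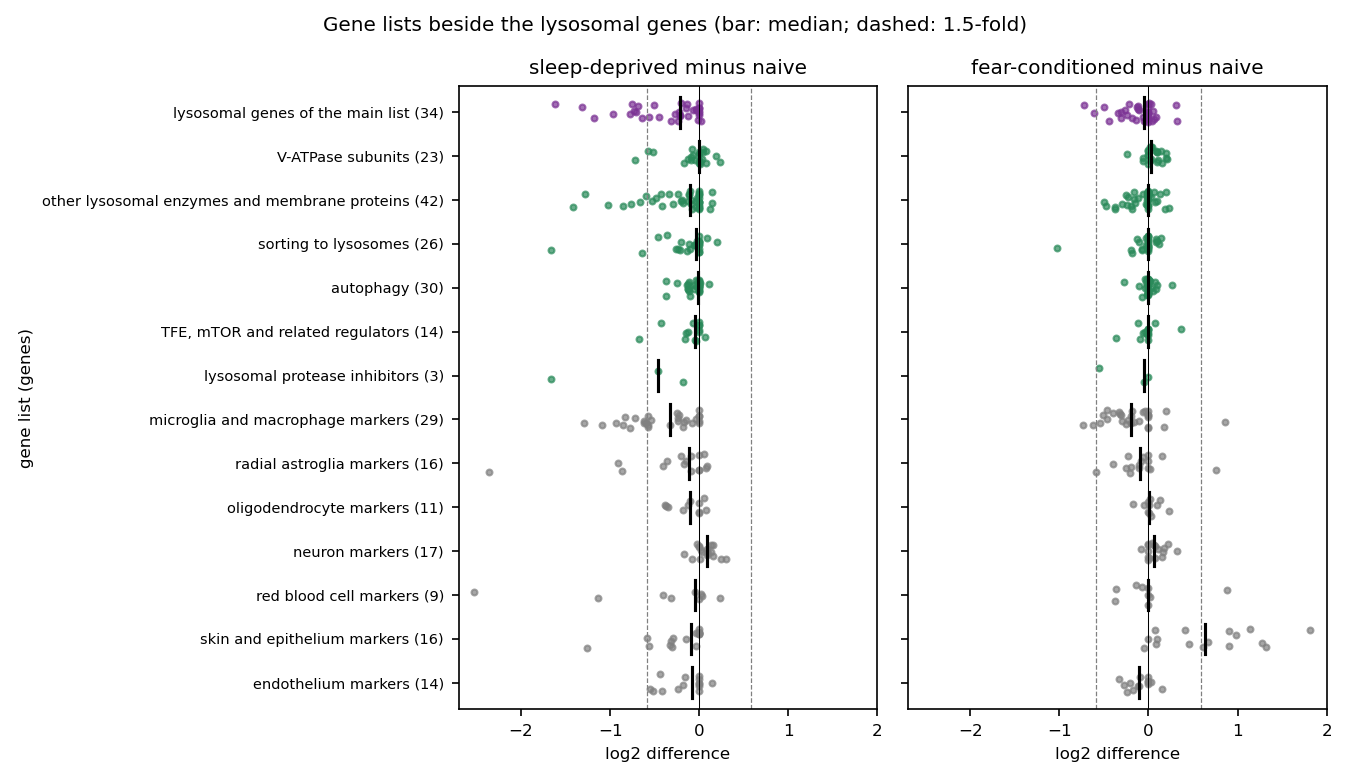
Log2 difference of single genes (points) and median (bar) for the 34 lysosomal genes (purple), 6 lists of related genes (green) and 7 lists of cell type markers (grey), with dashed lines at 1.5-fold. For sleep-deprived minus naive the median is -0.22 for the lysosomal genes, 0.00 for proton pump subunits, -0.01 for autophagy and -0.33 for markers of microglia and macrophages.

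Markers of microglia and macrophages were mostly lower on the sleep-deprived array, as the lysosomal genes were. Of 29 markers 24 were lower on the sleep-deprived than on the naive array, 5 equal and 0 higher. Over all genes these shares were 30.9%, 44.3% and 24.8%. The markers had a median of -0.33, with 10 at least 1.5-fold lower, against 2.43% of all genes. Summed on the linear scale, their signal was 5925 on the sleep-deprived, 7352 on the fear-conditioned and 9169 on the naive array, so 64.6% and 80.2% of the naive sum. None was at 0, and the dimmest value was 3.44, of cxcr4b on the sleep-deprived array, which lay below the dim limit. This gene was kept because its signal was 4.03 on the fear-conditioned and naive arrays. Its sleep-deprived minus naive difference of -0.60, counted among the 10 at least 1.5-fold lower, thus rests on a signal under that limit. Differences for sleep-deprived minus naive were -1.30 for lgals3bp.1, -1.09 for apoeb, -0.93 for the macrophage perforin gene mpeg1.1 and -0.85 for spi1b, which encodes the transcription factor PU.1. In fear-conditioned minus naive 20 of the 29 were lower, 6 equal and 3 higher (median -0.20), with all genes at 23.2%, 46.2% and 30.6%. At least 1.5-fold lower there were 2 markers, mpeg1.1 at -0.73 and spi1b at -0.62, against 0.763% of all genes. At least 1.5-fold higher was 1 marker, ptprc at 0.86, against 0.83% of all genes. The part of these markers in the differences of the lysosomal genes was not tested.

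Other cell type markers moved on the same arrays by smaller medians in sleep-deprived minus naive. The means kept another order, at -0.46 for red blood cell markers, -0.43 for microglia and macrophages and -0.33 for radial astroglia. The 16 radial astroglia markers had a median of -0.12 with 3 at least 1.5-fold lower, against 2.43% of all genes, nes (-2.36), gfap (-0.91) and cyp19a1b (-0.87). Of these 16 markers 10 were lower, 2 equal and 4 higher, up to 0.08 for glula. Over all genes 30.9% were lower, 44.3% equal and 24.8% higher. Oligodendrocyte markers had -0.11 over 11 genes, from -0.38 for mbpa to 0.07 for cldnk, with 6 lower, 3 equal and 2 higher. Endothelial markers had -0.08 over 14 genes, from -0.55 for kdrl to 0.15 for tie1, with 7 lower, 6 equal and 1 higher. Of 9 red blood cell markers 5 were lower, 1 equal and 3 higher, against 30.9%, 44.3% and 24.8% of all genes, with a median of -0.05. At least 1.5-fold lower were nt5c2l1 (-2.53) and epb41b (-1.13), while the haemoglobin genes hbba2 (0.24) and hbaa2 (0.02) were higher. Skin and epithelium markers had -0.09 over 16 genes, with cdh1 at -1.26, but 0.63 in fear-conditioned minus naive. Neuron markers, with signals from 5.84 upward, were higher on the sleep-deprived array in 12 of 17 genes, against 24.8% of all genes. They had a median of 0.08, led by syn2a at 0.30. Every list held only genes whose highest array passed the dim limit. The summed linear signal of the sleep-deprived array was 104% of naive for neurons, 85.5% for radial astroglia, 84.5% for oligodendrocytes, 87.4% for endothelium and 92.9% for skin. For red blood cells it was 54.2%, and 83.5% without nt5c2l1. All these sums, and that of the microglia and macrophage markers, weigh bright genes most. An example is mbpa among the oligodendrocyte markers, at 11.38 on the sleep-deprived and 11.76 on the naive array. Only the red blood cell sum was repeated without a gene. The part of these lists in the lysosomal differences was not tested either.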

How the data were processed

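One table was used. Its deposited values, 1 per probe set and array for 75212 probe sets, were read as log2 signals from their range, with no logarithm base stated in these sources. The authors had normalized the arrays (each has a median of 4.99), by a method not given in the sources used here, so a shift of all genes one way cannot be seen. Per the labels' protocols, RNA was extracted with Trizol and sense cDNA was labelled with biotin using the GeneChip WT terminal labelling kit.

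Probe sets with 1 symbol (20806) were named from the platform's annotation, updated through Entrez identifiers in a RefSeq table of assembly GRCz12tu for 20323. The 855 probe sets with several symbols were left out of gene values, and 53551 were unnamed. Older names in the lists were matched where they led to 1 current gene. Genes whose highest array was under 3.45, the lower quartile of all values, were left out (1302). Python 3.11.15 with pandas 2.3.3 took differences, and counts were made at 1.5-fold. With 1 array per group no test, error or p-value was possible. The counting steps were run on simulated data with differences well past 1.5-fold and no exactly equal values. That run checked the code alone and says nothing on how reliable the counts are in these arrays.

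All measured members are accounted for. Signals on the 3 arrays are given for members at least 1.5-fold apart in any comparison, for paralog pairs and for tfeb, with others added where they show a role's pattern, and from each further list up to 4 genes with the largest sleep-deprived minus naive difference. The genes gnsa, grna.2, grnb, hbba2 and hbaa2, and the red blood cell sum without nt5c2l1, were added after their values were seen. Members and lists were chosen with earlier results of these data known. The list of further lysosomal genes also holds tpp2, whose product is cytosolic. It holds cln6a, cln8, sumf1, sumf2 and nagpa too, whose products work before enzymes reach the lysosome. Of these, cln8, at -0.59 for sleep-deprived minus naive, is among the 7 genes at least 1.5-fold lower, and nagpa is also counted in the sorting list. Promoter and protein sequences, and the motif search planned on them, were not used here. Alternatives were centring, quantile normalization, a lowess trend (fraction 0.3), the brightest probe set, other dim limits and a 2-fold threshold.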

Additional observations from a re-analysis of the deposited data

How the results depend on the processing

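The counts of members at least 1.5-fold apart, the counts of lower members and the medians were recomputed under each alternative. Of these values 79 stayed close to the reported ones (counts within 1.5-fold, medians within 0.1) while 8 did not. Many of the 79 could hardly move. All 34 members passed the dim limit, so dropping it changed none of them, and a limit at the median of all values left 33. The brightest probe set could alter only the 2 members with 2 probe sets. A change of a count from 19 to 26 also passed as close. The tally is therefore not a test of stability. At a 2-fold threshold the lower members were 3 for sleep-deprived against naive fish, 0 for fear-conditioned against naive fish and 1 for sleep-deprived against fear-conditioned fish. The shares over all genes were 0.668%, 0.184% and 0.869%. The other changes came from alternatives added after the data were seen. Without the proteases the counts at 1.5-fold in the same order were 2, 0 and 1 of 21 genes, against 2.43%, 0.763% and 2.71% of all genes. The 0 and the 1 lie near their shares. The smaller counts follow from most of the lower members being proteases. The mean over members was -0.39 for sleep-deprived against naive fish, and without exactly equal members the median was -0.34 for sleep-deprived against fear-conditioned fish. Centring each array moved the median of all genes by 0.04 for sleep-deprived against naive fish and by 0.05 for sleep-deprived against fear-conditioned fish, where it took ctsh and asah1b below 1.5-fold, at -0.58 and -0.54. It also changed the count of lower members from 28 to 24 for sleep-deprived against naive fish. For fear-conditioned against naive fish that count went from 19 to 26, so the order of these counts reversed. Members with equal deposited values are no longer equal after centring. No member's difference past 1.5-fold changed sign under any alternative run. No paired analysis was possible because each condition has 1 array. Single arrays, an unstated normalization and the frequent equal values limit these results.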

Other observations

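Beyond ctsla, 5 further cathepsin genes outside the list were named on the array, chosen here after their values were seen. Of these, ctsl.1 was already counted among the 42 further lysosomal genes above. The signals of the 5 cathepsin genes lay below that of the median named gene. The highest was 5.50, of cts12 on the sleep-deprived and fear-conditioned arrays. The sleep-deprived minus naive differences were small, 0.08 for cts12, -0.12 for ctsl.1, -0.18 for ctsll, -0.02 for ctss1 and 0.00 for ctslb. Only ctslb was under the dim limit, with a signal of 3.23 on all 3 arrays. Names starting with ctsl3 were not searched.

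The probe set annotated to both ctss2.2 and onecutl had 5.68 on the sleep-deprived, 6.03 on the fear-conditioned and 6.18 on the naive array, and it cannot be said which of the genes it measures. A probe set shared by letmd1 and cd63 had 7.42, 7.55 and 7.46 on those arrays, a sleep-deprived minus naive difference of -0.04 beside -0.64 on the probe set of cd63 alone. For the probe set shared by cstf3 and mcoln1a the signal was 7.60 on each array, and for that shared by slc26a11 and sgsh it was 5.84 on the sleep-deprived, 5.84 on the fear-conditioned and 5.81 on the naive array.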
